A study of Mus musculus with 8 samples.

Results

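A set of 10 chemokine genes of mouse embryonic fibroblasts (MEFs) were examined in cells with and without Cebpg: Cxcl1, Cxcl2, Cxcl5, Cxcl10, Cxcl12, Cxcl16, Ccl2, Ccl7, Ccl20 and Cx3cl1. They were taken as every probe set whose platform annotation names 1 of these genes alone, which gave 18 of the 45037 probe sets and 10 of the 18193 genes on the array. Cebpg encodes C/EBPγ, a basic leucine zipper factor that binds DNA as a dimer with related factors. The groups were 4 WT and 4 Cebpg-/- samples of total RNA on a C57BL/6 background, from embryos at E13.5. Cells of both genotypes were grown in medium with 10% serum and harvested at passage 3, 48 hours after plating at equal density, and the labels name no stimulus. The labels call the samples biological replicates without saying whether they come from separate embryos, and they do not describe the Cebpg-/- allele, so a p-value here speaks only of the variation among these 8 arrays. Each sample was hybridised to 1 Affymetrix array, and the values are RMA values on the log2 scale, 1 per probe set and array.

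Chemokines are small secreted proteins that guide white blood cells along a gradient by binding G protein-coupled receptors. Fibroblasts secrete those that call neutrophils (Cxcl1, Cxcl2 and Cxcl5, which act on Cxcr2) and monocytes (Ccl2 and Ccl7, which act on Ccr2) after cytokines switch on NF-kB, while Cxcl12, which holds and attracts cells carrying Cxcr4, is made by stromal cells at rest. C/EBP factors are known to act with NF-kB at several promoters of inflammatory genes.

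The chemokine genes split in Cebpg-/- cells. By the brightest probe set of each gene, 4 of 10 rose (Ccl2, Cxcl1, Cxcl2 and Cxcl16), 2 fell (Cxcl12 and Cx3cl1) and 4 missed the threshold (limma, Benjamini-Hochberg adjusted p under 0.05 over all 45037 probe sets). Over all genes 7.11% were called higher and 3.24% lower by the same rule, 10.4% in all. Ccl2 rose 2.63-fold and Cxcl1 4.68-fold, while Cxcl12 fell 1.45-fold, and Cxcl5 had the largest difference of all at 2.46 on the log2 scale without passing (adjusted p = 0.0541). The median change was 0.46 over the 10 genes and -0.00092 over all genes. The 10 genes were chosen with earlier results of these data known, so the comparisons with all genes describe the set and do not test it. Leaving out WT replicate 1 or WT replicate 3 left none of the 10 genes called higher by limma, with 5 at an unadjusted p under 0.05 in each case, and leaving out Cebpg-/- replicate 4 left 1.

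Counted by probe set, 5 of 18 were called higher and 3 lower, against 4.82% and 2.78% of all probe sets (7.60% in either direction). In 9 of the 18 the values of the genotypes did not overlap, against 15.0% of all probe sets, and in 6 of these the Cebpg-/- values were the higher ones (8.71% of all) and in 3 the lower ones (6.31%). Without WT replicate 1 or 3 only 1 probe set was called higher, a Cxcl16 one. Of the 18, 14 had a mean above 2.73, the median of all values, below which a signal near the bottom of the scale understates a change. The other 4 lay below it, the only Cxcl2 probe set, 1 of 3 for Cxcl12 and 2 of 4 for Cx3cl1.

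**Figure D1:**
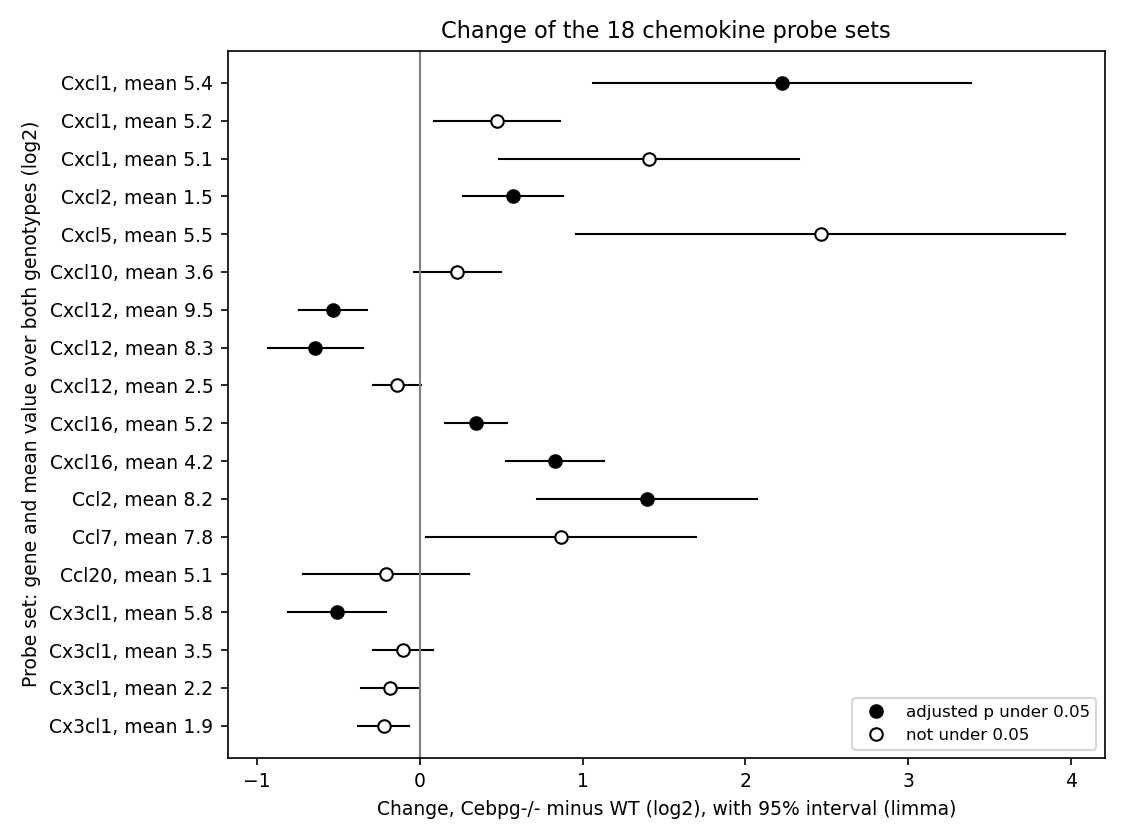
The change of each of the 18 chemokine probe sets, Cebpg-/- minus WT on the log2 scale (x axis), with its 95% interval from limma; filled points have an adjusted p under 0.05 and the y axis names the gene and the probe set's mean value. The filled points lie to the right for Cxcl1, Cxcl2, Cxcl16 and Ccl2, at 0.34 to 2.23, and to the left for Cxcl12 and Cx3cl1, at -0.64 to -0.51.

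Promoter sequences were at hand in a RefSeq table for 6 of the 10 genes: Cxcl1, Cxcl2, Cxcl10, Cxcl12, Ccl20 and Cx3cl1. The 250 bases before the start of 4 of them are shown, of Cxcl1 and Cxcl2, which rose, of Cxcl12, which fell, and of Cxcl10, which did not pass, to set the letters known to bind NF-kB beside the direction of change. Capitals mark matches on either strand to the letters GGGA, any 4 bases and CC, a general form of the kB motif. Positions are those of build GRCm38.p6, for Cxcl1 chr5:90890995-90891244 on the plus strand, for Cxcl2 chr5:90903649-90903898 on the plus strand, for Cxcl10 chr5:92348890-92349139 on the minus strand and for Cxcl12 chr6:117168285-117168534 on the plus strand.
Cxcl1: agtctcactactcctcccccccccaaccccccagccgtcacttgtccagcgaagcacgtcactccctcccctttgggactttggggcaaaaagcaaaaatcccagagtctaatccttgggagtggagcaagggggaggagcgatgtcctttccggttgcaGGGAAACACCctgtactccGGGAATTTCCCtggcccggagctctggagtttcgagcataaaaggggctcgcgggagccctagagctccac
Cxcl2: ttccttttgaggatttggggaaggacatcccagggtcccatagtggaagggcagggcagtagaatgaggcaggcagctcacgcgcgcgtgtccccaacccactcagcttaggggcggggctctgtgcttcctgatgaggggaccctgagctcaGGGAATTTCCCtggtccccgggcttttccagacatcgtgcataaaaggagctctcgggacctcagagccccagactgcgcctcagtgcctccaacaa
Cxcl10: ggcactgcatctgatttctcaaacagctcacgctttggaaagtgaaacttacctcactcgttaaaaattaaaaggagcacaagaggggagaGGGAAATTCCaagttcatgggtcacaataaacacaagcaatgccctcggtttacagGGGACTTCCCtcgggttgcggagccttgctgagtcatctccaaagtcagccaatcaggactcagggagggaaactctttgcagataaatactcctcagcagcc
Cxcl12: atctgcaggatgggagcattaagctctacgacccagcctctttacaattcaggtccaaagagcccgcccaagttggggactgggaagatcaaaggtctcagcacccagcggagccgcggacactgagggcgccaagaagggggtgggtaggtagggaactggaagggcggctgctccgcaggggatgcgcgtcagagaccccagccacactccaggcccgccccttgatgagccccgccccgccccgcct
The kB letters stood in 4 of the 6 promoters (Cxcl1, Cxcl2, Cxcl10 and Ccl20) and in 17.63% of 32851 promoters of the same length. Cxcl1 and Cxcl2 share the word GGGAATTTCC, which begins 71 bases before the start of Cxcl1 and 97 bases before that of Cxcl2, and each copy overlaps a match on the other strand. Cxcl1 carries another match, GGGAAACACC, 90 bases before its start. Cxcl10 carries GGGAAATTCC 159 and GGGACTTCCC 103 bases before its start, and Ccl20 carries GGGAAAACCC 81 bases before its start. A C/EBP half-site pair written as TTNNGCAA was in none of the 6 promoters and in 9.56% of all, and the C/EBP-ATF element written as TGATGNAA was in none of the 6 and in 3.45% of all. A match describes letters in these windows and is no measure of binding.

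Cxcl1, a neutrophil chemokine, had the largest change among the called genes. Its brightest probe set (1419209_at) read 4.42, 4.95, 3.96 and 3.98 on WT replicates 1 to 4 and 5.36, 7.79, 5.59 and 7.47 on Cebpg-/- replicates 1 to 4. All Cebpg-/- values lay above all WT values, and within the Cebpg-/- samples replicates 2 and 4 lay far above replicates 1 and 3. The change was 2.23 ± 0.52 (SE; 95% interval 1.06 to 3.39; limma adjusted p = 0.0309). Cxcl1 missed the threshold when WT replicate 1 (limma adjusted p = 0.0808), WT replicate 3 (0.0869) or Cebpg-/- replicate 4 (0.0827) was left out. It also missed it when variances were fitted robustly with a trend on intensity (limma adjusted p = 0.103). The second probe set to move (1457644_s_at) read 4.21 to 4.58 in WT and 4.81, 6.90, 5.03 and 6.53 on Cebpg-/- replicates 1 to 4, so its groups did not overlap either and the same 2 samples were high, yet its change of 1.41 did not pass (limma adjusted p = 0.0700). It passed without Cebpg-/- replicate 1, the lowest of its group (limma adjusted p = 0.0380), and was not called in 15 of 18 alternatives. The third (1441855_x_at) differed by 0.47 with overlapping groups (limma adjusted p = 0.131). The suffixes of the latter probe sets, and of 1 for Cxcl16 and 1 for Cx3cl1, mark probes that can match other transcripts, and which ones was not analysed here.

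Cxcl5, another ligand of Cxcr2, varied most between samples. It read 4.45, 5.45, 3.86 and 3.39 on WT replicates 1 to 4 and 4.99, 8.51, 6.27 and 7.24 on Cebpg-/- replicates 1 to 4. Only Cebpg-/- replicate 1 lay within the WT range. The difference was 2.46 ± 0.67 (SE; 95% interval 0.96 to 3.96; limma adjusted p = 0.0541). It passed without that sample (3.05, limma adjusted p = 0.0233), without WT replicate 2, the highest of WT (2.85, 0.0443), and when p-values were adjusted over genes, 1 probe set each (0.0397). Leaving out the lowest Cebpg-/- or the highest WT sample raises the difference by construction. Without any other single sample Cxcl5 missed the threshold (limma adjusted p from 0.0792 to 0.132). It also missed it after quantile normalization (0.0666) and with robust variances and an intensity trend (0.153). In 10 of 19 alternatives it was not called.

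Cxcl2, a neutrophil chemokine whose gene lies next to Cxcl1, was at the bottom of the scale. Its WT values ran from 1.18 to 1.31 and its Cebpg-/- values were 1.77, 1.67, 1.48 and 2.25 on replicates 1 to 4. The groups did not overlap and the change was 0.57 ± 0.14 (SE; limma adjusted p = 0.0346). No fold is given, because all 8 values lie below the median of all values. The call was lost without any single WT sample (limma adjusted p = 0.0948, 0.0546, 0.0869 and 0.0508 without replicates 1 to 4) and without Cebpg-/- replicate 1 (0.0855).

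The monocyte chemokine Ccl2 rose from a high level. It read 7.39, 7.75, 7.57 and 7.17 on WT replicates 1 to 4 and 8.31, 9.56, 8.16 and 9.44 on Cebpg-/- replicates 1 to 4. The groups did not overlap, and replicates 2 and 4 were again the high Cebpg-/- samples. The change was 1.40 ± 0.30 (SE; 95% interval 0.72 to 2.07; limma adjusted p = 0.0233). Ccl2 did not pass when WT replicate 1 (limma adjusted p = 0.0716), WT replicate 3 (0.0575) or Cebpg-/- replicate 4 (0.0632) was left out, nor with robust variances and an intensity trend (0.0789).

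Ccl7, which acts on the same receptor and lies next to Ccl2, read 7.36, 7.88, 7.44 and 6.73 on WT replicates 1 to 4 and 7.52, 9.10, 7.51 and 8.76 on Cebpg-/- replicates 1 to 4. Cebpg-/- replicates 1 and 3 lay within the WT range and replicates 2 and 4 above it. The difference of 0.87 ± 0.37 (SE; 95% interval 0.04 to 1.70) did not pass (limma adjusted p = 0.194), in any of the alternatives either (0.142 to 0.369).

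Ccl20, which attracts Ccr6-bearing lymphocytes and dendritic cells, did not differ between genotypes by an amount that passed. It read 5.27, 4.93, 5.30 and 5.49 in WT and 4.49, 5.64, 4.72 and 5.30 in Cebpg-/- (replicates 1 to 4), so replicates 2 and 4 were again the higher ones and the groups overlapped. The difference was -0.21 with a 95% interval from -0.72 to 0.30 (limma adjusted p = 0.631).

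Cxcl10, an interferon-induced ligand of Cxcr3, read 3.53, 3.35, 3.39 and 3.59 in WT and 4.06, 3.63, 3.63 and 3.45 in Cebpg-/- (replicates 1 to 4). Here Cebpg-/- replicate 1 was the highest and replicate 4 lay within the WT range. The difference was 0.23 with a 95% interval from -0.04 to 0.50 (limma adjusted p = 0.283).

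Cxcl12, the resting stromal chemokine, fell by similar amounts on its bright probe sets. The brightest (1448823_at) read 9.60, 9.92, 9.74 and 9.67 on WT replicates 1 to 4 and 9.25, 9.39, 9.12 and 9.03 on Cebpg-/- replicates 1 to 4, a change of -0.53 ± 0.09 (SE; limma adjusted p = 0.00966). The next (1417574_at) averaged 8.59 ± 0.16 over WT samples and 7.94 ± 0.27 over Cebpg-/- samples (SD, n = 4), with a change of -0.64 ± 0.13 (SE; limma adjusted p = 0.0182). On both, every Cebpg-/- value lay below every WT value, and the spread between samples was small beside that of Cxcl1. The brightest kept its call when any 1 of the 8 samples was left out, with changes from -0.60 to -0.47, and the next lost it without WT replicate 3 (limma adjusted p = 0.0538) or Cebpg-/- replicate 3 (0.0573). Another, dim probe set (1439084_at), below the median of all values, differed by -0.14 (limma adjusted p = 0.230).

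Cxcl16 and Cx3cl1 are made as membrane-bound proteins that tether cells and are shed by the proteases Adam10 and Adam17, and they went opposite ways. The brightest Cxcl16 probe set (1418718_at) read 4.98, 5.24, 4.99 and 4.98 in WT and 5.57, 5.38, 5.31 and 5.31 in Cebpg-/- (replicates 1 to 4), and the groups did not overlap. Its change of 0.34 ± 0.08 (SE) passed (limma adjusted p = 0.0371), but this call was lost when any sample other than WT replicate 2 was left out (limma adjusted p from 0.0583 to 0.107) and after quantile normalization (0.0909). The other Cxcl16 probe set (1449195_s_at) read 3.45, 3.95, 4.00 and 3.80 in WT and 4.93, 4.49, 4.51 and 4.60 in Cebpg-/-, also with no overlap. It rose by 0.83 ± 0.13 (SE; limma adjusted p = 0.00656) and kept its call when any 1 sample was left out.

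The brightest Cx3cl1 probe set (1415803_at) read 5.99, 5.58, 6.22 and 6.26 in WT and 5.43, 5.63, 5.45 and 5.50 in Cebpg-/- (replicates 1 to 4). WT replicate 2 lay among the Cebpg-/- values, so the groups overlapped. The change of -0.51 ± 0.14 (SE) was just past the threshold (limma adjusted p = 0.0489), and the call was lost when any sample other than WT replicate 2 was left out (0.0547 to 0.127) and after array medians were subtracted (0.0640). Its 3 other probe sets differed by -0.22 to -0.10 and none passed with limma (adjusted p from 0.0852 to 0.485), though 2 of them had an unadjusted p under 0.05 (0.0466 and 0.00967).

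**Figure D2:**
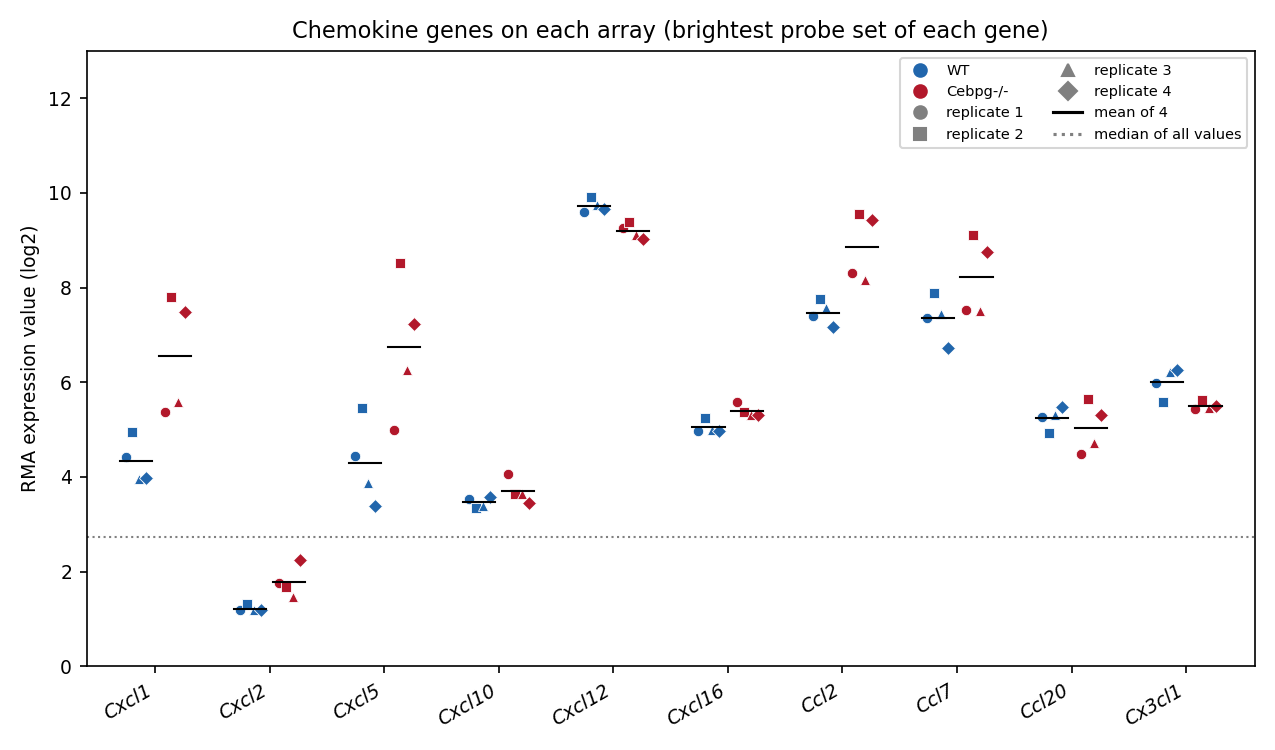
RMA values on the log2 scale (y axis) of the brightest probe set of each of the 10 chemokine genes (x axis), with WT in blue and Cebpg-/- in red, a marker shape for each replicate number, black bars for the mean of 4 and a dotted line for the median of all values. Each gene is to be read within itself, since levels of different probe sets are not comparable. Cebpg-/- replicates 2 and 4 lie above replicates 1 and 3 for Cxcl1, Cxcl5, Ccl2, Ccl7 and Ccl20.

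Samples of the same genotype differed from each other more than most of the array did in these genes. In each genotype 9 of the 10 genes had an SD above the median over all probe sets, dim ones included. The SD between the 4 Cebpg-/- samples was 1.26 for Cxcl1, 1.49 for Cxcl5, 0.73 for Ccl2, 0.83 for Ccl7 and 0.53 for Ccl20, where the median over all probe sets was 0.095. Between the 4 WT samples it was 0.47, 0.89, 0.25, 0.47 and 0.23 for the same genes, where the median was 0.11. These 5 genes were among the 1% of probe sets with the largest SD in Cebpg-/-, and in WT 1 of the 10 genes was. The SD was larger in Cebpg-/- than in WT for 8 of the 10 genes, without a test. Cebpg-/- replicate 2 was the highest of its group for 7 of the 10 genes, and WT replicate 2 the highest of its group for 7. A replicate number is no known link between samples of the genotypes.

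Markers of white blood cells also differed between the samples. In bulk RNA, fewer cells of a type and less RNA per cell cannot be told apart. All 18 leukocyte markers of a list (Ptprc, Csf1r, Cd68, Tyrobp and others) were lowest on WT replicate 1 and highest on Cebpg-/- replicate 1, and 17 had a mean above the median of all values. Their mean was 3.52, 5.20, 5.10 and 5.28 on WT replicates 1 to 4 and 7.39, 4.76, 6.66 and 6.28 on Cebpg-/- replicates 1 to 4. The sum of these log2 values over the list ran from 63.3 to 95.1 in WT and from 85.7 to 133 in Cebpg-/-. It is the same measure times 18 and no total of signal. The median change of the 18 was 1.50, with 15 higher at an unadjusted p under 0.05, of which Cd14 alone passed (limma adjusted p = 0.0433). Without Cebpg-/- replicate 2, 15 of the 18 passed and the median change was 1.99, but that sample is the lowest of its group in these same markers. Without any other single sample 0 or 1 passed with limma, with 8 to 17 higher at an unadjusted p under 0.05. The Cd14 call was lost when any sample other than WT replicate 4 and Cebpg-/- replicate 2 was left out (limma adjusted p from 0.0525 to 0.121). The Cebpg-/- sample with the lowest marker mean, replicate 2, had the highest Cxcl1, Cxcl5, Ccl2 and Ccl7 values, and the sample with the highest marker mean, replicate 1, had the lowest Cxcl1 and Cxcl5 values of its group. With the marker mean as a covariate the changes were 3.19 for Cxcl1 (limma adjusted p = 0.0329), 3.78 for Cxcl5 (0.0390), 1.87 for Ccl2 (0.0475) and 1.50 for Ccl7 (0.152). The other Cxcl1 probe sets passed as well, at 2.20 (limma adjusted p = 0.0494) and 0.86 (0.0301). The covariate ended the calls of Cxcl2 (0.55, 0.270), Cxcl12 (-0.52, 0.124), Cx3cl1 (-0.44, 0.368) and both Cxcl16 probe sets (0.27, 0.371, and 0.55, 0.0912), at changes of 0.27 to 0.55 in size. Without the covariate these changes were 0.57, -0.53, -0.51, 0.34 and 0.83. The marker mean itself differed by 1.50 between the genotypes, so its part and that of genotype cannot be told apart.

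**Figure D3:**
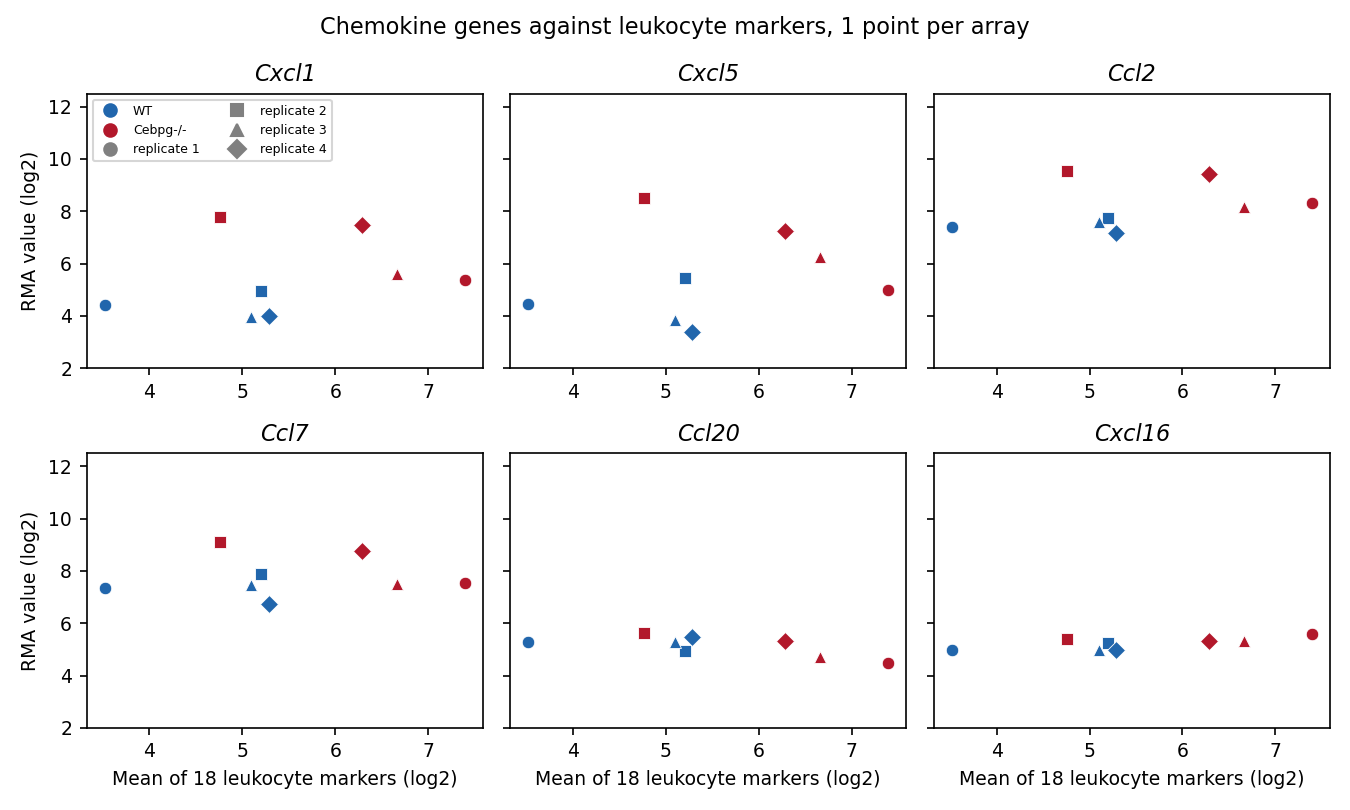
RMA values on the log2 scale of 6 chemokine genes (y axis, brightest probe set) against the mean of the 18 leukocyte markers (x axis), 1 point per sample, with WT in blue, Cebpg-/- in red and a marker shape for each replicate number. Cebpg-/- replicate 2, at a marker mean of 4.76, has the highest Cxcl1, Cxcl5, Ccl2, Ccl7 and Ccl20 values, and Cxcl16 is highest on Cebpg-/- replicate 1, at a marker mean of 7.39.

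Leaving out both replicate 1 samples, the extremes of the marker mean, narrowed the test to 3 samples a group. By its brightest probe set none of the 10 chemokine genes then passed with limma, with 6 higher and 2 lower at an unadjusted p under 0.05, and the changes were 2.65 for Cxcl1 (limma adjusted p = 0.0703), 3.10 for Cxcl5 (0.0721), 1.55 for Ccl2 (0.0869) and -0.60 for Cxcl12 (0.0564). The other Cxcl16 probe set still passed (0.61, limma adjusted p = 0.0182), the only 1 of the 18 to do so. The defining genes of fibroblasts were bright in all samples, with a list mean of 9.29 to 9.61 in WT and 9.07 to 9.38 in Cebpg-/-. Of the 12 genes of the list 5 fell and 7 missed the threshold, where 3.24% of all genes were called lower. Among those that fell were Fap at -0.88 and Col3a1 at -0.97 (limma adjusted p = 0.00295 and 0.00424). With the leukocyte marker covariate Fap and Col3a1 were at -0.71 and -0.70 (limma adjusted p = 0.0587 and 0.0607). Of the 7 others Lum differed by 1.07 (limma adjusted p = 0.1325), and S100a4, Vim and Dcn by 0.08, 0.02 and -0.01. Neutrophil, mast cell and basophil markers had means below the median of all values except Mcpt8, a basophil protease, which rose by 2.76 (limma adjusted p = 0.00121). The parts of these cell types in the chemokine changes were not tested.

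Chemokine genes lie in clusters, and the neighbours of Cxcl1 were compared. In the RefSeq gene table of assembly GRCm38.p6, Cxcl5, Ppbp, Pf4, Cxcl3, Cxcl15, Cxcl1 and Cxcl2 follow each other with no other protein-coding gene between them. Cxcl3, a neutrophil chemokine, read 2.04 to 2.63 in WT and 3.08 to 4.09 in Cebpg-/-, with no overlap, and rose by 1.47 (limma adjusted p = 0.00474). Ppbp and Pf4 are platelet chemokines. Ppbp read 3.53 to 4.63 in WT and 5.57 to 7.16 in Cebpg-/- and rose by 1.96 (limma adjusted p = 0.0121), and Pf4 differed by 1.28 with overlapping groups (0.0506). Cxcl15, a lung chemokine, stayed below the median of all values on every array, at 1.94 to 2.06. Cxcl3 still passed with the leukocyte marker covariate (1.68, limma adjusted p = 0.0314) and Ppbp did not (1.57, 0.188). With it the difference of Pf4 was 0.52 (limma adjusted p = 0.513).

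The other genes beside Ccl2 and Ccl7 gave no call. Ccl11, Ccl8 and Ccl1 were dim on most arrays, with differences of 0.02, -0.06 and 0.03, and Ccl12 differed by 0.57 with overlapping groups (limma adjusted p = 0.263). Of these 6 genes Ccl2 alone passed.

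**Figure D4:**
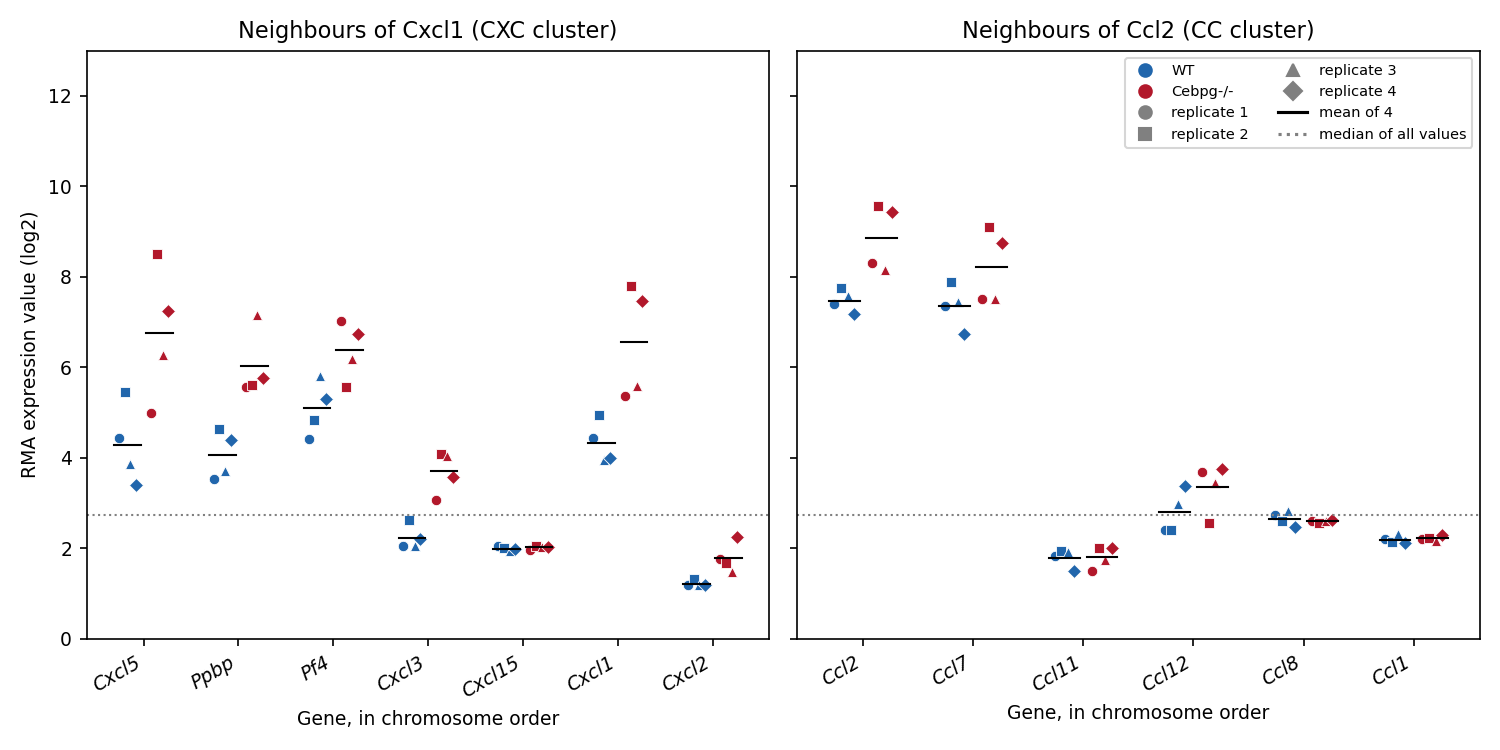
RMA values on the log2 scale (y axis, brightest probe set) of the chemokine genes around Cxcl1 (left) and Ccl2 (right), in chromosome order (x axis), with WT in blue, Cebpg-/- in red, a marker shape for each replicate number, black bars for the mean of 4 and a dotted line for the median of all values. The genotypes do not overlap for Ppbp, Cxcl3, Cxcl1, Cxcl2 and Ccl2.

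Of 24 other measured chemokines 5 rose, none fell and 19 missed the threshold, where 7.11% of all genes were called higher and 3.24% lower. The median change of the list was 0.11. None had an unadjusted p under 0.05 for a fall. Besides Cxcl3 and Ppbp those that rose were Ccl6 (2.46, limma adjusted p = 0.0117), Ccl9 (2.08, 0.0269) and Ccl5 (1.66, 0.0326), which leukocytes also make. Ccl5 read 5.33 on Cebpg-/- replicate 2 and 7.39 on replicate 1, the reverse of Cxcl1 and in the order of the leukocyte markers. Ccl9 did not pass without WT replicate 1 (limma adjusted p = 0.0632) or Cebpg-/- replicates 1, 3 or 4 (0.0810, 0.0778 and 0.0714). Ccl5 did not pass without any 1 sample other than WT replicate 4 and Cebpg-/- replicate 2 (limma adjusted p from 0.0568 to 0.0929), and with any 1 sample left out 3 to 8 of the list rose. With the leukocyte marker covariate the change of Ccl5 was 0.58 (limma adjusted p = 0.0427), that of Ccl9 0.87 (0.166) and that of Ccl6 1.58 (0.169), so that Ccl5 passed at a much smaller change and Ccl9 and Ccl6 did not pass.

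The receptors of these chemokines were mostly at the bottom of the scale, with 8 of 21 above the median of all values. Cxcr2 (1.50 to 1.90 over all samples) and Cxcr3 (1.95 to 2.39) were among the dim ones. Where 7.11% of all genes were called higher, a single receptor of the 21 rose, Ackr3, which binds and removes Cxcl12. Its values ran from 5.21 to 5.84 in WT and from 6.05 to 6.43 in Cebpg-/-, with no overlap, and it rose by 0.71 (limma adjusted p = 0.0156), the opposite direction to its ligand. It did not pass with the leukocyte marker covariate (0.66, limma adjusted p = 0.181) or without both replicate 1 samples (0.65, 0.140), and no receptor was called by limma in either, with 1 higher and 1 lower at an unadjusted p under 0.05 in each. It missed the threshold when WT replicate 1 (limma adjusted p = 0.0548) or Cebpg-/- replicates 1 or 3 (0.0511 and 0.0502) were left out. Ccr9, a receptor of gut-homing lymphocytes, was called lower (-0.29, limma adjusted p = 0.0423) at values under the median of all values, and was not called when any sample other than WT replicate 4 was left out (0.0576 to 0.120). Cxcr4, which signals for Cxcl12, read 2.29 ± 0.21 and 2.30 ± 0.26 (limma adjusted p = 0.978).

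Of 11 proteases that shed or trim chemokines 4 rose and none fell, where 7.11% of all genes were called higher and 3.24% lower. Adam17 rose by 0.29 (limma adjusted p = 0.0454), a call lost when any sample other than Cebpg-/- replicate 2 was left out (0.0508 to 0.127), and Adam10 differed by -0.05 (0.652). The metalloproteases Mmp3, Mmp13 and Mmp12 rose by 3.53, 4.49 and 2.27 (limma adjusted p = 0.000231, 0.000524 and 0.0182). With the leukocyte marker covariate Mmp3 and Mmp13 passed at 3.29 and 3.70 (limma adjusted p = 0.00518 and 0.00577), and Mmp12 (1.20, 0.191) and Adam17 (0.15, 0.492) did not. Mmp12 was not called when WT replicate 1 (limma adjusted p = 0.0548), Cebpg-/- replicate 1 (0.0522) or Cebpg-/- replicate 4 (0.0553) was left out.

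Of 26 measured genes of NF-kB signalling 7 rose, none fell and 19 missed the threshold. Over all genes 7.11% were called higher and 3.24% lower, and the median change of the list was 0.12. Ikbkg, a subunit of the kinase that frees NF-kB, rose by 0.59 (limma adjusted p = 0.00238), Il1rap, a subunit of the interleukin-1 receptor, by 0.44 (0.00640), Tlr3, a receptor for double-stranded RNA, by 0.59 (0.0174) and Nfkbia, the inhibitor that NF-kB itself induces, by 0.49 (0.0163). Rela, the main activating subunit, differed by 0.11 (limma adjusted p = 0.273). Nfkbia read 8.72, 8.81, 8.85 and 8.65 on WT replicates 1 to 4 and 9.12, 9.40, 9.03 and 9.44 on Cebpg-/- replicates 1 to 4, so Cebpg-/- replicates 2 and 4 were the high ones, as for Cxcl1 and Ccl2. Without WT replicate 1 neither Nfkbia (limma adjusted p = 0.0548) nor Tlr3 (0.0583) passed, and 2 to 8 of the list rose with any 1 sample left out. With the leukocyte marker covariate no gene of the list was called by limma, with 8 higher and 1 lower at an unadjusted p under 0.05, while the median change was 0.18. The changes were then 0.48 for Ikbkg (limma adjusted p = 0.0505), 0.44 for Il1rap (0.0911), 0.60 for Nfkbia (0.0716) and 0.41 for Tlr3 (0.257).

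Lists of mRNA stability factors, C/EBP factors and interferon genes are small. Their counts are to be read against the 10.4% of all genes called. Of 8 factors that act on the stability of chemokine mRNA, in either direction, 1 rose, Zfp36l2 (0.31, limma adjusted p = 0.0384). Its call was lost when any sample other than Cebpg-/- replicate 2 was left out (limma adjusted p from 0.0502 to 0.111). Zc3h12a, an RNase that cuts inflammatory mRNA, differed by 0.44 (limma adjusted p = 0.193). Among 5 measured C/EBP genes Ddit3 fell by 0.39 (limma adjusted p = 0.0123; 0.0782 with the leukocyte marker covariate), and Cebpb differed by 0.29 (0.246). Cebpg itself fell on 1 of its 3 probe sets, from 6.32 ± 0.07 to 5.53 ± 0.12 (SD, n = 4; limma adjusted p = 0.000593), while its brightest read 6.78 ± 0.16 and 6.60 ± 0.11 (0.275). The remaining probe set, with a mean just above the median of all values, read 2.80 ± 0.14 and 3.05 ± 0.10 (limma adjusted p = 0.0942). On it every Cebpg-/- value lay above every WT value, as for 8.71% of all probe sets. Where these probe sets lie relative to the altered part of the Cebpg-/- allele is not given in the sources used here. Of 14 interferon genes 2 rose, Ifit2 (0.59, limma adjusted p = 0.00154) and Ifit3 (0.63, 0.0466), and the Ifit3 call was lost without any 1 of 6 samples (limma adjusted p = 0.0753 to 0.128). With the leukocyte marker covariate Ifit2 passed (0.49, limma adjusted p = 0.0329), Ifit3 did not (0.25, 0.484), and the median change of the list went from 0.38 to -0.05.

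The genes most like Cxcl1 over the 8 samples were found among 11649 others with a mean above the median of all values. The 6 with the highest Pearson r were Orc1 (0.98, a subunit of the replication origin complex), Naaa (0.96, a lipid amidase of lysosomes), Echdc3 (0.96), Sipa1l1 (0.96), Tada3 (0.95) and Nfkbia (0.95). Within the genotypes, after each genotype's mean was subtracted, r was 0.85 to 0.93. Their ranges were narrow beside that of Cxcl1, with changes from 0.16 for Tada3 to 0.49 for Nfkbia, and Naaa, Sipa1l1 and Nfkbia passed (limma adjusted p = 0.0230, 0.0120 and 0.0163). These r values come from 8 points that share genotype and normalization and from the top of a long list, and they are given as a description.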

How the data were processed

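Total RNA of 4 WT and 4 Cebpg-/- MEF samples, grouped by their titles, was labelled from 1 µg and hybridised to 1 array each. Per the submitters' processing notes, RMA gave the deposited log2 values. For its settings the sources used here give nothing. The method normalizes between arrays and compresses changes of dim probe sets. Array medians ran from 2.70 to 2.76, and the number of arrays limits the precision. No 2 arrays held the same values.

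Of 45101 rows 64 controls were left out. The platform table names 1 gene for 34945 probe sets, several for 932 and none for 9160; 34741 symbols were updated through RefSeq by Entrez number. The probe set with the highest mean stood for a gene in gene counts.

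The main test was limma 3.58.1 (R 4.3.3; lmFit and eBayes with genotype as the only term) on all 45037 probe sets, adjusted by Benjamini-Hochberg over all of them, with a threshold of 0.05. Tested on simulated data with 200 of 45037 probe sets changed, in 10 draws, the fit called 63.2% of changes of 0.5 and 96.3% of changes of 1, and 6.01% of its calls were false. In the data 3424 probe sets were called, and the simulated rates are not given for genes as variable as Cxcl1 or Cxcl5. Same-numbered samples did not deviate together (r of deviations from -0.36 to 0.15), so they were not paired.

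The genes named are all members, Cebpg, up to 4 called genes per list of 16 lists with the lowest p, and the 6 most like Cxcl1. Receptors and neighbours of the members, Rela, Adam10, Zc3h12a and Cebpb were also named, after their values were seen. So were Ccl5, Lum, S100a4, Vim and Dcn, and the leukocyte markers Ptprc, Csf1r, Cd68 and Tyrobp as examples of their list. The members and lists were chosen with earlier results of these data known. Endothelial, epithelial, mesothelial, muscle and erythroid markers gave 1 call, Epcam (-0.34, adjusted p = 0.0284). Protein sequences were not used here. Alternatives are given in the closing section.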

Additional observations from a re-analysis of the deposited data

Results flagged for a closer look

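In 2 of 36 sets of 4 samples (18 probe sets in each genotype) 1 sample stood apart by Dixon's test, where chance gives about 1 in 20. Both times it was WT replicate 2. Its Cxcl16 value on the brightest probe set was 5.24, where the other WT samples read 4.98 to 4.99, and its Cxcl2 value was 1.31, where they read 1.18 to 1.19.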

How the results depend on the processing

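Each chemokine result was recomputed under scaling, filter, variance, weight, covariate and threshold alternatives and without each sample. Of the changes of the 18 probe sets the single one to turn its sign was Ccl20, to 0.22 with the leukocyte marker covariate (limma adjusted p = 0.764, over alternatives 0.238 to 0.982). Probe sets called higher numbered 5. They were 3 with robust variances and an intensity trend, 2 where a change of at least 1 was asked for, 1 without both replicate 1 samples (an alternative added after seeing the data) and 1 to 5 without any 1 sample. Probe sets called lower numbered 3. They were 0 with the leukocyte marker covariate, 0 at a change of at least 1, 0 without both replicate 1 samples (limma, with 3, 5 and 4 at an unadjusted p under 0.05) and 1 to 3 without any 1 sample. Genes called higher numbered 4. They were 2 with robust variances and an intensity trend, 2 at a change of at least 1, 0 without both replicate 1 samples (6 unadjusted) and 0 to 4 without any 1 sample. Genes called lower numbered 2. They were 1 after array medians were subtracted, 1 with the replicate block, 0 with the leukocyte marker covariate, 0 at a change of at least 1, 0 without both replicate 1 samples (2 unadjusted each) and 1 to 2 without any 1 sample. The causes were not tested, beyond the fewer samples where some were left out. With the replicate number as a block, 4 probe sets were called higher and 2 lower, 3 genes were called higher, Cxcl5 passed (limma adjusted p = 0.0342), and all calls on the array fell from 3424 to 1911. Of the 8 samples 1 correlated best with its own number. The median change of all probe sets was -0.016 as deposited, -0.0089 after quantile normalization and 0.018 after array medians were subtracted. Leaving out dim probe sets kept 14 of the 18, and all changes of the other 4 lie near the bottom of the scale. Of 30 called genes of the other lists 15 kept their call without any 1 sample.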
